A study of Caenorhabditis elegans with 12 samples.

Results

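A set of 8 genes of satiety signalling was followed through chromatin immunoprecipitation and sequencing (ChIP-seq) of the transcription factor ETS-5 in the nematode Caenorhabditis elegans. They are the TGF-beta pathway genes daf-7, daf-1, daf-4, daf-8, daf-14, daf-3 and daf-5, and the cGMP-dependent kinase gene egl-4. The genes were picked by name for their role in feeding state and fat storage, and all 8 were found among the 19971 protein-coding genes of the RefSeq gene table of assembly WBcel235. The precipitates came from whole-worm extracts of strain FQ237, which the series title describes as carrying ets-5 fused to GFP, and from the wild-type strain N2, each beside an input. All worms grew on the bacterium OP50, and an antibody against GFP is listed for every sample, inputs included. The 12 samples form 4 groups of 3, and window lists of the 3 ETS-5 precipitates were analysed here. The sources used here do not state the age of the worms or whether the tagged gene is an extra copy.

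In the DAF-7 pathway a secreted TGF-beta ligand, made mainly in a pair of head sensory neurons when food is plentiful, acts through a type I and a type II receptor kinase. The receptors act on the Smad proteins DAF-8 and DAF-14, which oppose the co-Smad DAF-3 and its Sno/Ski partner DAF-5. The pathway is known for the choice between growth and the dauer larva, for fat storage and for the quiet state that follows a full meal, and egl-4 is required for that quiet state. ETS-5 is an ETS-family factor that earlier work tied to sensory neurons and to satiety.

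The lists of replicates 1, 2 and 3 held 3811, 2915 and 3697 windows of 400 bp. They carry positions only, with no height, score or read count, so the depth behind a window is unknown. What the order of the lines stands for is not stated, so a line number gives only a place in the list. The tagged gene had windows inside its span in every list (2, 3 and 3), and its first window stood at line 1 of each. A missing window means only that a list holds none there. Nothing says whether the replicates came from separate cultures. Wild-type precipitates and inputs were not analysed here, so windows that an untagged strain would also give cannot be told apart from ETS-5 windows.

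Within 10000 bp of the 8 genes lay 20 windows of replicate 1, 14 of replicate 2 and 15 of replicate 3 (16.3 ± 3.21, SD, n = 3). Distances run from the middle of a window to the nearer end of the gene, and a middle between the ends counts as inside. Of these 49 windows, 15 lay inside one of the 8 genes, and 31 had one of them as the nearest protein-coding gene. Overlapping windows were merged into regions. A region with windows of all 3 replicates is called shared, and 1788 of the 5455 regions of the genome were.

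Windows stood at most of the 8 genes, but the replicates differed in which. A window lay inside 5 of the 8 genes in replicate 1 (5.37% of all protein-coding genes), inside 2 in replicate 2 (3.76%) and inside 5 in replicate 3 (5.06%). The genes in replicates 1 and 3 were daf-7, daf-14, daf-3, daf-5 and egl-4, and those in replicate 2 were daf-14 and daf-5. Shared regions lay inside daf-14 and daf-5, which is 2 of 8 genes against 2.56% of protein-coding genes. Within 2000 bp, windows were found at 6 of the 8 genes in replicate 1 (16.8%), 3 in replicate 2 (14.1%) and 5 in replicate 3 (18%). At that distance daf-14 and daf-5 were again the genes with a shared region (9.22%), and 7 of 8 genes had a window in at least 1 list (23.8%). Within 10000 bp the counts were 7 (44.5%), 6 (38.6%) and 6 (44.6%), and 4 of 8 genes had a shared region (26.9%), namely daf-7, daf-4, daf-14 and daf-5. Counting genes with a window in each of the 3 lists, overlapping or not, gave 2 of 8 inside (2.62%), 2 within 2000 bp (9.64%) and 5 within 10000 bp (29.7%), which adds daf-3 to the 4 with a shared region. Without replicate 2, both remaining lists held a window inside 5 of the 8 genes (3.46%) and within 2000 bp of the same 5 (11.9%). The percentages are shares of all protein-coding genes under the same rule, and no test was run over the 8 genes because they were named with earlier results of these data known.

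**Figure D1:**
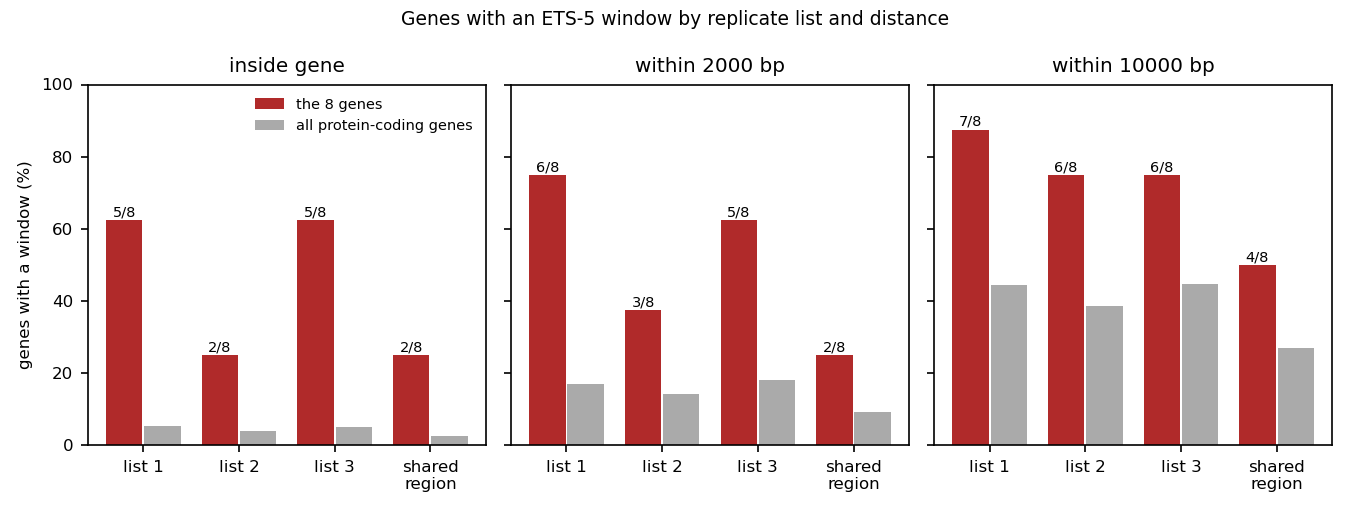
Share of genes with an ETS-5 window inside the gene, within 2000 bp and within 10000 bp, for the lists of replicates 1 to 3 and for shared regions; red bars are the 8 genes, with counts above, and grey bars all 19971 protein-coding genes. Inside genes, replicates 1 and 3 each reach 5 of 8 genes and replicate 2 reaches 2.

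Long genes held windows more often than short ones, and the median span of the 8 genes was 5446 bp, against 2006 bp over all protein-coding genes. The span of daf-7 was below that median and those of the other genes above it. Among the 10390 genes at least as long as daf-7, the shortest of the 8, the share with a window inside in any replicate was 12.2%, against 7.13% over genes of every length. It was 25.4% among the 3684 genes at least as long as daf-5, and 76.2% among the 42 genes at least as long as egl-4.

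The ligand gene daf-7 (B0412.2, chromosome III, span 1930 bp) had a window inside its span in replicates 1 and 3 and none in replicate 2. The window of replicate 1 ran from 813102 to 813501 at line 2362, and that of replicate 3 from 813240 to 813639 at line 173. Positions are as in the deposited lists, given from base 1, and the sources used here do not name their genome build. The middles of both windows lay 138 bp apart, at 471 and 333 bp from the high-coordinate end of the gene. The same place thus stood in the first 4.68% of one list, in the later part of another (62.0% of the lines), and in none of the lines of the third. Of protein-coding genes of every length, 0.841% had, like daf-7, a window inside in replicates 1 and 3 but not in replicate 2.

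A shared region, from 807983 to 808444, lay 3624 bp from daf-7 on its low-coordinate side. It stood at line 207, 286 and 495 of replicates 1 to 3, in the first 5.43%, 9.81% and 13.4% of the lines, which made it the earliest placed by mean line share of all shared regions near the 8 genes. Its middle lay inside trpp-11, a gene named for the TRAPP complex of vesicle traffic, so the nearest gene is not daf-7. A further window of replicate 1 alone, 2606 bp from daf-7, also lay inside trpp-11.

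The receptor genes differed. The type I receptor gene daf-1 (F29C4.1, chromosome IV, span 5666 bp) had no window within 10000 bp in any list, and the nearest ones lay 21393, 43176 and 47457 bp away in replicates 1 to 3. It was the only one of the 8 genes with none. Of all protein-coding genes, 55.9% had a window of at least 1 list within 10000 bp.

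The type II receptor gene daf-4 (C05D2.1, chromosome III, span 7188 bp) had no window inside in any list but 3 shared regions within 10000 bp, a number that 1.72% of protein-coding genes reached. The first, from 5621098 to 5621625, lay 3784 bp beyond the low-coordinate end of daf-4, in a stretch of 7873 bp without another protein-coding gene, and daf-4 was its nearest. It stood at line 806 in replicate 1, 987 in replicate 2 and 2711 in replicate 3, so it came late in replicate 3 (73.3% of the lines). The other two shared regions, from 5637264 to 5637667 and from 5639810 to 5640343, lay 5144 and 7738 bp from daf-4 and inside ckk-1, which encodes a calcium/calmodulin-dependent kinase kinase. The first of the pair stood at line 1020, 703 and 148, and its windows had middles within 4 bp of each other. Replicate 1 alone had a window 1544 bp from daf-4, at line 3607.

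**Figure D2:**
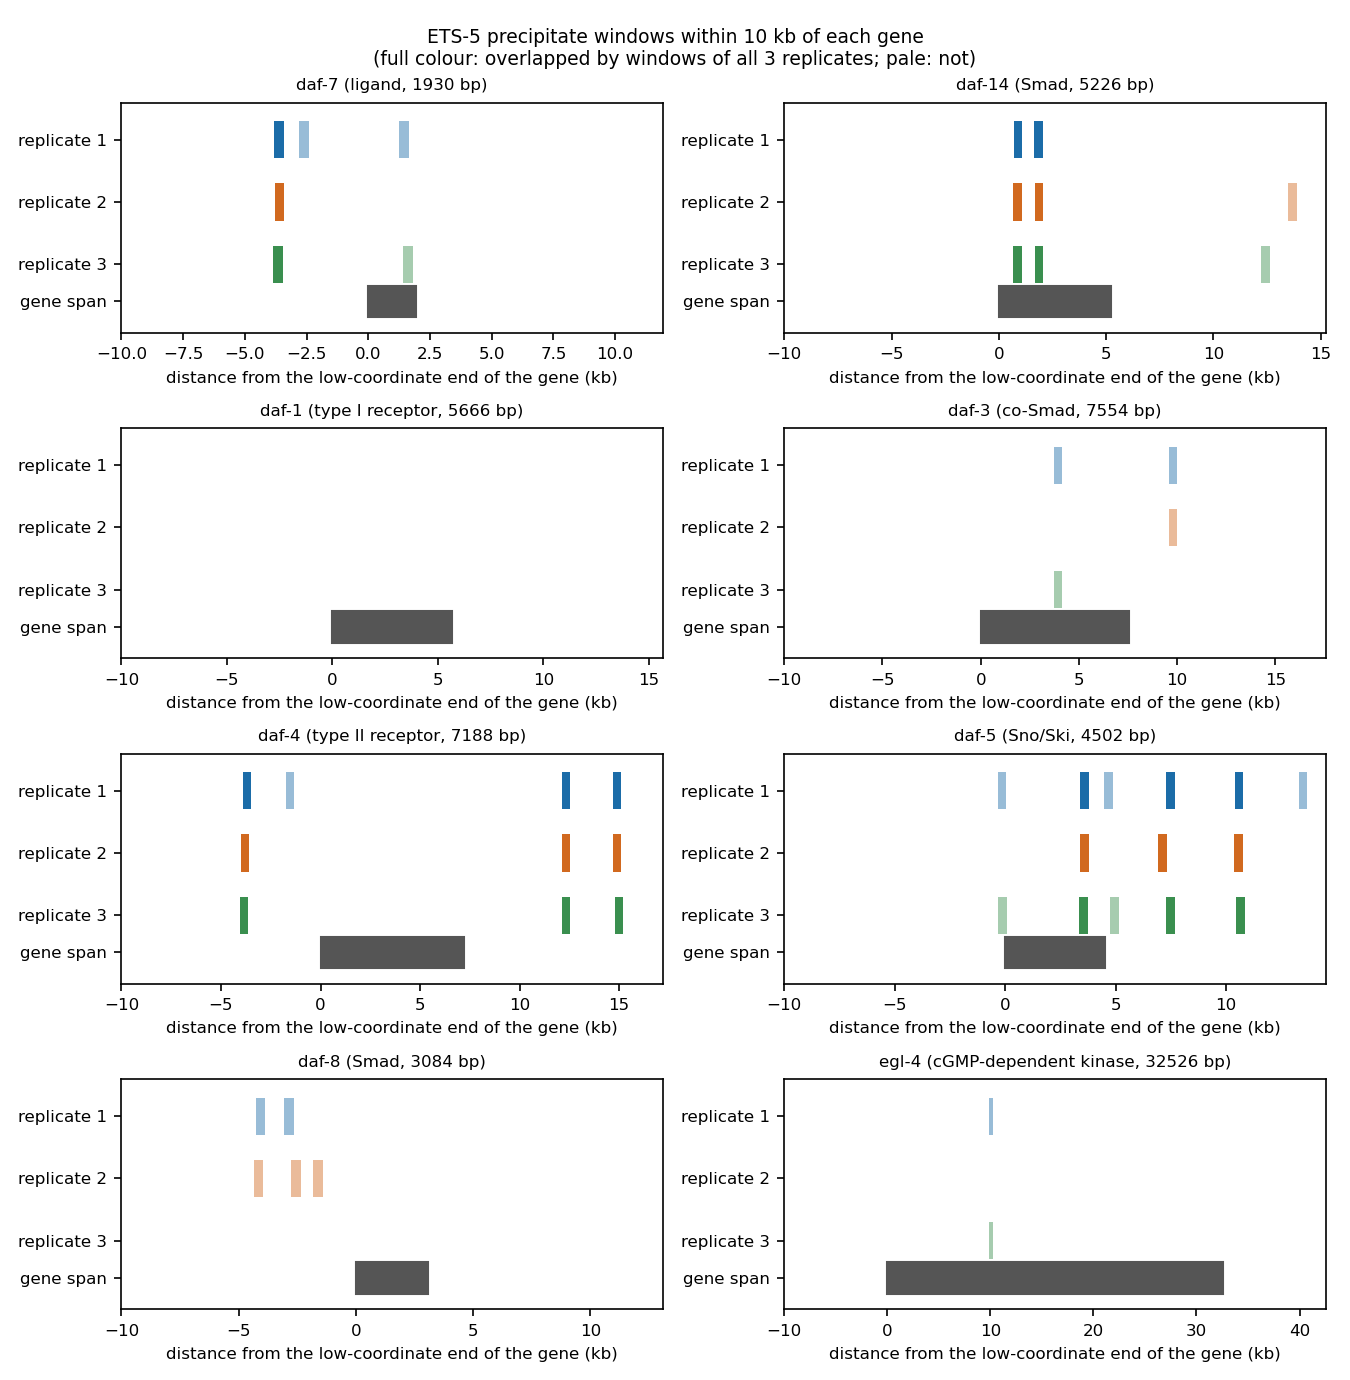
Windows of replicates 1 to 3 (rows, 400 bp each) around the 8 genes, by distance in kb from the low-coordinate end of each gene, drawn as a grey bar; full colours belong to regions of all 3 replicates and pale ones do not. The regions inside daf-14 and daf-5 recur in all 3 rows, those inside daf-7, daf-3 and egl-4 are missing from the row of replicate 2, and the panel of daf-1 is empty.

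The Smad genes that act below the receptors lay at opposite ends of the range of distances. The gene daf-14 (F01G10.8, chromosome IV, span 5226 bp) held 2 shared regions inside, a number found in 0.511% of protein-coding genes of every length. The span of daf-14 was as long as or longer than that of 85.3% of protein-coding genes. The earlier placed region ran from 10252264 to 10252702 and stood at line 281, 209 and 925 of replicates 1 to 3. The other ran from 10251291 to 10251714, at line 1259, 1441 and 892. Both lay in the low-coordinate part of the gene, with middles at 16.5% to 17.0% and at 35.2% to 35.9% of the span. The windows of the pair were 949 bp apart in replicate 1, 1012 bp in replicate 2 and 988 bp in replicate 3 (983 ± 31.8 bp, SD, n = 3). Replicates 1 and 2 listed the region farther from the low-coordinate end well before the other one. Replicate 3 listed both at nearby lines, 925 and 892. Single windows of replicates 3 and 2 lay 7207 and 8467 bp from daf-14 and did not overlap each other. F01G10.9 and nspd-7 were the protein-coding genes nearest to them.

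Its partner daf-8 (R05D11.1, chromosome I, span 3084 bp) had no window inside. Replicate 2 had a window 1619 bp away, from 8582605 to 8583004 at line 2061. Replicates 1 and 2 had overlapping windows 2705 bp away (8581376 to 8582061, lines 3182 and 2317) and 4109 bp away (8580078 to 8580552, lines 3190 and 2488). All these windows stood late in their lists, the earliest at 70.7% of the lines. The 4109 bp region lay 111 bp from rskn-1, named as a member of the ribosomal S6 kinase family, which was the nearest gene of both. Replicate 3 had no window closer than 54210 bp, and the nearest shared region lay 157527 bp from daf-8, a distance within which 96.8% of protein-coding genes had one.

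The co-Smad gene daf-3 (F25E2.5, chromosome X, span 7554 bp) had a window near the middle of its span in replicates 1 and 3. The windows ran from 821652 to 822051 at line 2526 and from 821661 to 822060 at line 2648, with middles 9 bp apart. Replicate 2 had none there. In its place, replicates 1 and 2 shared a region from 827489 to 827912, at lines 1881 and 1603, which lay 2226 bp from daf-3 and closer to wdr-54. Windows within 10000 bp were thus found in every list, but no region was shared, and the nearest shared one lay 11251 bp away.

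The most windows of the 8 genes were found at daf-5 (W01G7.1, chromosome II, span 4502 bp), the Sno/Ski gene, with 6, 3 and 5 windows within 10000 bp in replicates 1 to 3 (4.67 ± 1.53, SD, n = 3). All 14 had daf-5 as the nearest protein-coding gene. They included windows of 3 shared regions, a number within 10000 bp that 1.72% of protein-coding genes reached. The gene stands apart, with 11889 bp to the next protein-coding gene on its low-coordinate side and 22363 bp on the other. A shared region lay inside daf-5, from 14036581 to 14037015, at line 1223, 1252 and 938, with middles 905 to 940 bp from the high-coordinate end. Beyond that end lay a shared region from 14043595 to 14044073, 6103 bp out, at line 741, 880 and 835. Another shared region, 2859 bp out, ran from 14040128 to 14040910 and stood at line 604, 1155 and 651. Its window in replicate 2 lay 2607 bp out, while those of replicates 1 and 3 lay 2979 and 2990 bp out. It was not shared when an overlap of 100 bp was asked for.

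Windows also flanked both ends of daf-5 in replicates 1 and 3. At the low-coordinate end they lay 143 and 136 bp outside the gene, at lines 1267 and 994. At the high-coordinate end they lay 160 and 439 bp outside, at lines 2829 and 3405. Replicate 2 had neither. The gene table gives no strand, so which end holds the transcription start was not used here.

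The kinase gene egl-4 (F55A8.2, chromosome IV, span 32526 bp) had a span as long as or longer than that of 99.8% of protein-coding genes and held 1 window in replicate 1, 1 in replicate 3 and none in replicate 2. They ran from 1857950 to 1858349 at line 3030 and from 1857960 to 1858359 at line 2680, with middles 10 bp apart and about 10 kb (10079 and 10089 bp) from the low-coordinate end. Both stood late, at 79.5% and 72.5% of the lines. Replicate 2 had its nearest window 23813 bp from the gene. Among the 42 genes at least this long, 59.5% had a window inside in both replicates 1 and 3, and 50% held a shared region.

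**Figure D3:**
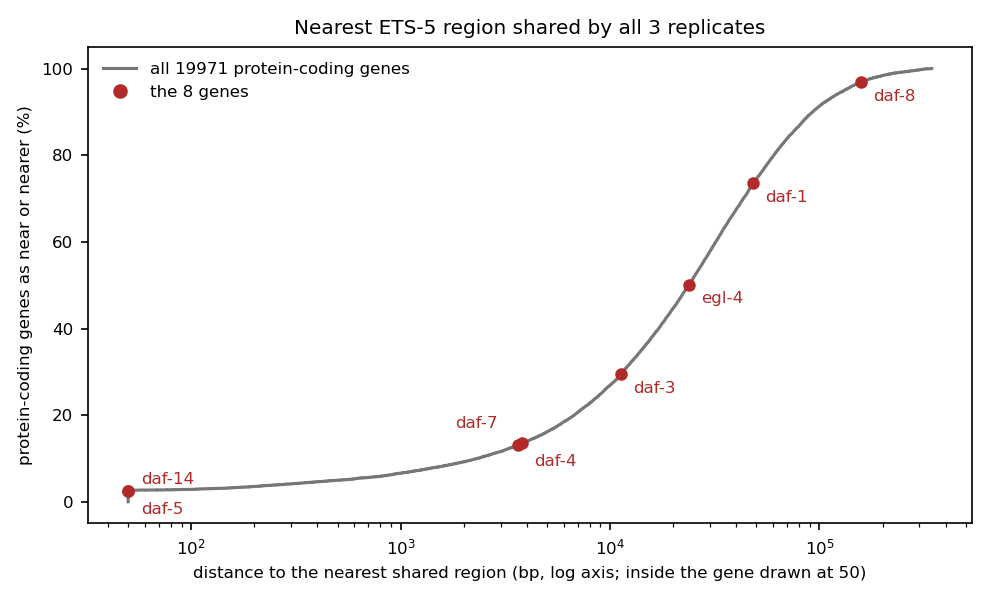
Cumulative share of the 19971 protein-coding genes (grey line, %) by distance to the nearest shared region (bp, log axis, with genes that hold one drawn at 50), with the 8 genes as red points. The genes daf-14 and daf-5 sit at the near end, daf-7 and daf-4 together at 3624 and 3784 bp, and daf-8 far out at 157527 bp.

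In order of distance to the nearest shared region, daf-14 and daf-5 held one, and then came daf-7 (3624 bp), daf-4 (3784 bp), daf-3 (11251 bp), egl-4 (23805 bp), daf-1 (48201 bp) and daf-8 (157527 bp). The windows of these regions lay 3599 to 3661 bp from daf-7 and 3709 to 3837 bp from daf-4, and daf-7 was the nearer in each replicate. These ranges show only how window placement varied within a single region per gene, and the region near daf-7 lay inside trpp-11. The median over the 8 genes was 7518 bp, against 23686 bp over all protein-coding genes. The 8 genes were also longer (median span 5446 bp, against 2006 bp), and the part of gene length in this and the later medians was not tested. The order further out depended on single replicates. With the regions common to replicates 1 and 3, without replicate 2, daf-7, daf-3 and egl-4 each held a region (0 bp), and the median of the 8 genes was 0 bp, against 19282 bp over all protein-coding genes. With the regions common to replicates 1 and 2, without replicate 3, the nearest region lay 2705 bp from daf-8 and 2226 bp from daf-3, and the medians were 3155 bp for the 8 genes and 17418 bp for all. Without replicate 1 they were 7536 and 21897 bp. With all 3 replicates, the share of protein-coding genes with a shared region as near or nearer was 13.1% for daf-7, 13.5% for daf-4, 29.5% for daf-3, 50.1% for egl-4 and 73.5% for daf-1.

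Over the 23 regions within 10000 bp of the 8 genes, 9 (39.1%) were shared, against 32.8% of all regions. Regions of replicates 1 and 3 without replicate 2 came to 5 (21.7%, against 8.95% of all regions), and they lay at daf-7, daf-3, egl-4 and both ends of daf-5. Regions of replicates 1 and 2 without replicate 3 came to 3 (13.0%, against 13.2%), and they lay at daf-8 and beside daf-3. Replicate 2 has the shortest list, and the part of list length in its missing windows was not tested. Of the 9 shared regions, 6 had one of the 8 genes as the nearest protein-coding gene, and the others lay in trpp-11 and ckk-1.

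**Figure D4:**
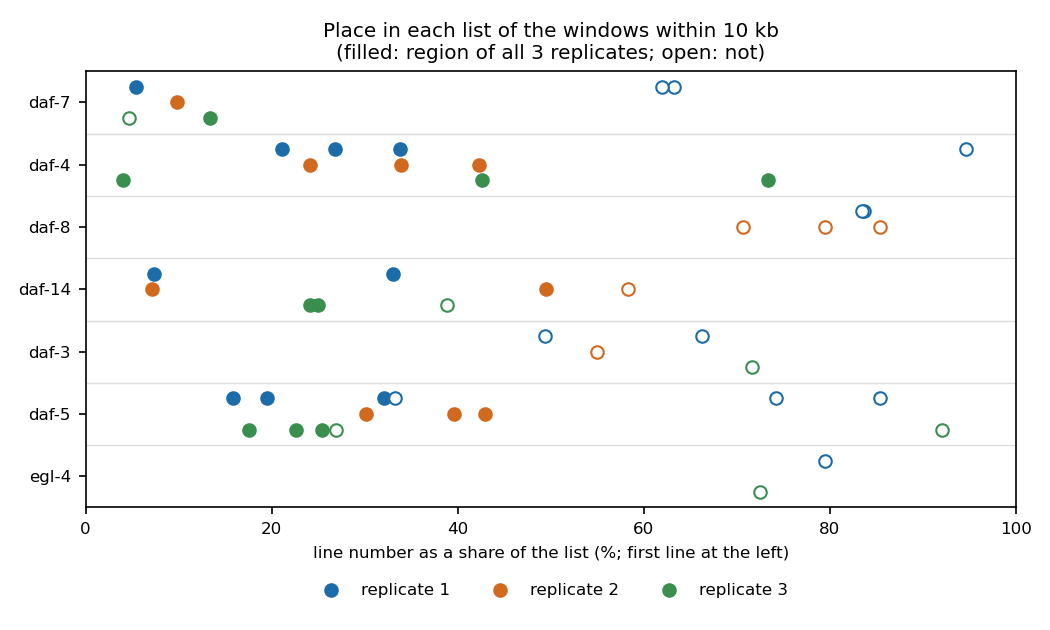
Place in its list (line number divided by the length of the list, %) of every window within 10 kb of a gene, by replicate; filled points belong to regions of all 3 replicates and open points do not. The windows of daf-8 and egl-4 all lie at 70.7% of the lines or later, and the filled points of daf-7, daf-14 and daf-5 lie at 49.4% or earlier.

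The sources used here do not say what the line order stands for. By line share over the 3 lists, the shared region of daf-14 at line 281, 209 and 925 was most like one near both acs-4, an acyl-CoA synthetase gene, and K04G7.1, at line 286, 176 and 964. The region inside daf-5 was most like those of acs-22, another acyl-CoA synthetase gene, at line 1206, 1226 and 974, and of unc-79, a gene of the sodium leak channel complex, at line 1196, 1143 and 1025. The search covered the 1841 protein-coding genes with a shared region within 2000 bp. The distances over the 3 line shares were 1.55 percentage points for both genes beside daf-14, and 1.39 and 4.47 for those beside daf-5.

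Other genes of TGF-beta and cGMP signalling were examined by the same measure. Of 33 listed genes, 32 were matched in the table (all but crm-1), and 5 of them (15.6%, against 9.22% of protein-coding genes) had a shared region within 2000 bp. None of the 4 other ligand genes (dbl-1, unc-129, tig-2 and tig-3) did, and the closest was tig-3 at 2140 bp. Among 7 receptor and modulator genes it was lon-2, a glypican gene of the body-size pathway, with a shared region inside (chromosome X, 4741036 to 4741476) at line 1587, 1006 and 1271. Among 5 Smad and cofactor genes it was sma-9, a zinc-finger cofactor of that pathway, with a region inside at line 400, 194 and 569. The Smad genes sma-2, sma-3 and sma-4 had theirs 27525, 7957 and 22869 bp away. The shares of pathway genes were not compared with those of genes of like length. Those with a shared region inside were long: lon-2, sma-9 and saeg-1 span 10120, 13692 and 13182 bp. The median over all protein-coding genes was 2006 bp.

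Among 8 cGMP genes, 3 had a shared region within 2000 bp (37.5%, against 9.22% of protein-coding genes). Both genes of EGL-4 partners in the nucleus did: saeg-1 held one inside, at line 2587, 2090 and 3586, and saeg-2 had one 222 bp away, at line 2863, 2132 and 3186. All 6 of these lines lie late in their lists. The third was odr-1, a guanylyl cyclase gene, with a region 1977 bp away that lay nearer to cah-4. The guanylyl cyclase gene daf-11 and the channel genes tax-2 and tax-4 had their nearest shared regions 37466, 50711 and 36025 bp away, and the kinase gene pkg-2 had its own at 36462 bp. None of the 8 dauer and fat genes beside the pathway had one within 2000 bp, the nuclear receptor gene daf-12 lying 6810 bp from its nearest. The glutamate receptor gene mgl-1 had a window inside in every list, but those of replicates 1 and 2 overlapped without one of replicate 3, and its nearest shared region lay 9749 bp away.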

How the data were processed

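What the authors deposited is a table of windows per ETS-5 precipitate, each line holding chromosome, start and end in base pairs and no other measure. The submitters' processing notes name Bowtie2 and MACS2. The sources used here do not give versions, settings, the control or the genome build, and a list called against a wild-type precipitate would differ from one called without it. The middle of each window was taken as its position, and starts were taken to count from 0. Gene names and spans came from the WBcel235 RefSeq table, on the assumption of shared coordinates, and shifts of 100 bp were tried. Windows overlapping by at least 1 bp were merged. No promoter or motif was examined, since no sequence was used here. The genes and pathway lists were chosen with earlier results of these data known, so no set test was run. Shares over all protein-coding genes are given as description, and they do not replace a test. The rule for named genes took the 8 genes, ets-5, the nearest protein-coding gene of each window, pathway genes with a shared region within 2000 bp, and for daf-14 and daf-5 the 2 genes most alike in line share. The other pathway genes named, without such a region, were added to complete the counts after their values were seen. Distances and merging were tested on simulated windows. Python 3.11.15, numpy 2.4.6 and pandas 2.3.3 were used.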

Additional observations from a re-analysis of the deposited data

How the results depend on the processing

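The genes with a window in all 3 lists, daf-14 and daf-5, were the same 2 inside genes and within 2000 bp under several settings. The share over all protein-coding genes moved from 2.62% inside and 9.64% within 2000 bp. With the window edge in place of its middle it was 3.54% and 10.2%, and with the first 50% of lines 1.23% and 4.47%. Shifts of 100 bp left and right gave 2.73% and 2.67% inside, and 9.65% and 9.63% within 2000 bp. Limits of 500 and 1000 bp gave 5.07% and 6.80%. Leaving out 1 replicate in turn gave 2 to 5 genes at either distance. The 2 came without replicate 1 (2.76% of protein-coding genes inside and 10.7% within 2000 bp) and without replicate 3 (3.46% and 12.2%). The 5 came without replicate 2 and added daf-7, daf-3 and egl-4 (3.46% of protein-coding genes inside and 11.9% within 2000 bp). Asking for at least 2 lists also gave 5 (4.45% and 15.5%), and a limit of 5000 bp gave 5 (17.4%), with daf-7, daf-4 and daf-3 added. Within 10000 bp the count of 5 (29.7% of protein-coding genes) ranged from 4 to 7 over all alternatives. The 4 came with the first 50% of lines (15.2%) and the 7 with at least 2 lists (42.1%), so the share over all protein-coding genes moved with the count. Shared regions within 10000 bp numbered 9, and regions of the 2 remaining lists numbered 9 to 14 when 1 replicate was left out, with 14 without replicate 2. With all genes of the table as background, the shares were 1.48% inside, 7.87% within 2000 bp and 26.8% within 10000 bp. Giving each window to its nearest gene alone kept 31 of 49 windows. Other pathway genes with a region within 2000 bp came to 8 with at least 2 lists (15.1% of protein-coding genes), in place of 5 (9.22%). Of 40 distances recomputed for single genes, 9 moved by more than the spread between replicates, and these concerned daf-7, daf-3 and egl-4 (0 bp each without replicate 2), and daf-8 and daf-3 without replicate 3 (2705 and 2226 bp), or the same genes with at least 2 lists. No paired analysis was possible because window lists of 1 group were used and no test compared groups. Read depth is unknown, which limits what a missing window can show.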
